A study of Mus musculus with 17 samples.

Results

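The strain difference inside the brain was examined in CD8+ T cells of transgenic and wild type mice. The libraries labelled as brain were taken from the table of raw counts: 4 from APP-PS1 mice and 5 from wild type (WT) mice, 9 of the 17 libraries in the series. The other 8 came from blood, 3 from APP-PS1 and 5 from WT mice. APP-PS1 mice carry the APP Swedish PS1 dE9 transgenes, one of which is a mutant amyloid precursor protein, chimeric between mouse and human. The prion protein promoter directs the transgenes to neurons of the central nervous system, and their expression in T cells was not tested. The WT mice carry no transgene that the labels name. The series describes its animals as aged, but no age of an animal was found in the labels. Both hemispheres of each mouse, with brainstem and cerebellum, were prepared, myelin was removed on Percoll, and cells were stained with a viability dye and fluorescent antibodies. APP-PS1 brain libraries 1, 2 and 3 came from males and library 4 from a female, while all 5 WT brain libraries came from females, so strain and sex can hardly be told apart. Library numbers only name the libraries. Each library was labelled as a sample of its own and nothing states which brain and blood libraries share a mouse.

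CD8+ T cells recognise peptides on MHC class I molecules through the T cell receptor and kill target cells with granzymes and perforin. After an infection or with age, some stay in tissues as resident memory cells, which carry CD69, CD103 (Itgae), CD49a (Itga1) and CXCR6 and lack the egress receptor S1PR1 and the lymph node homing receptor CCR7. Such cells are known in the brain, and CD8+ T cells accumulate in amyloid models, where interferon and antigen-presentation genes of microglia are also known to be raised.

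The brain libraries were shallow. Total counts were 27646, 85410, 56255 and 127707 in APP-PS1 brain and 73475, 169903, 51161, 131800 and 95839 in WT brain. A single count was thus worth 36.2 CPM (the count scaled to the library's total) in the shallowest library and 5.89 CPM in the deepest. Between 4781 and 8764 genes had a count in a library. Mitochondrial genes took 1.70% to 2.97% and ribosomal protein genes 11.1% to 16.7% of the counts. On principal components, APP-PS1 brain library 1, the shallowest, stood apart on the first and WT brain library 3 on the second. Correlation across genes between libraries had a median of 0.715 within APP-PS1 brain, 0.803 within WT brain and 0.761 between the strains, so pairs from different strains lay between both within-strain values.

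No gene passed the test between APP-PS1 and WT brain. Of 48709 genes listed, 2366 had enough counts to be tested with edgeR's quasi-likelihood test, and 0 (0%) reached a Benjamini-Hochberg adjusted p under 0.05, where the smallest adjusted p was 0.999. DESeq2 and limma voom also called 0 genes. Without adjustment, edgeR gave 99 of the 2366 tested genes a p under 0.05 and limma voom 115 of the 2366. DESeq2 gave 331 of the 13539 genes with a count. Of edgeR's 99, 44 were higher in APP-PS1 brain (1.86% of tested genes) and 55 lower (2.32%), so 4.18% of tested genes passed an unadjusted threshold of 5%. The median log2 fold change over all tested genes was -0.029, with 1120 of 2366 above 0. For 20 genes (0.845%) every APP-PS1 brain library lay above every WT brain library in CPM, and for 17 (0.719%) every one lay below. In the plot of fold change against expression, the differences spread most widely among genes of low level. These are bulk libraries, so fewer cells expressing a gene and less RNA per cell cannot be told apart. The p-values of edgeR rest on the spread between libraries within groups, estimated over all 17 libraries of brain and blood together.

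**Figure D1:**
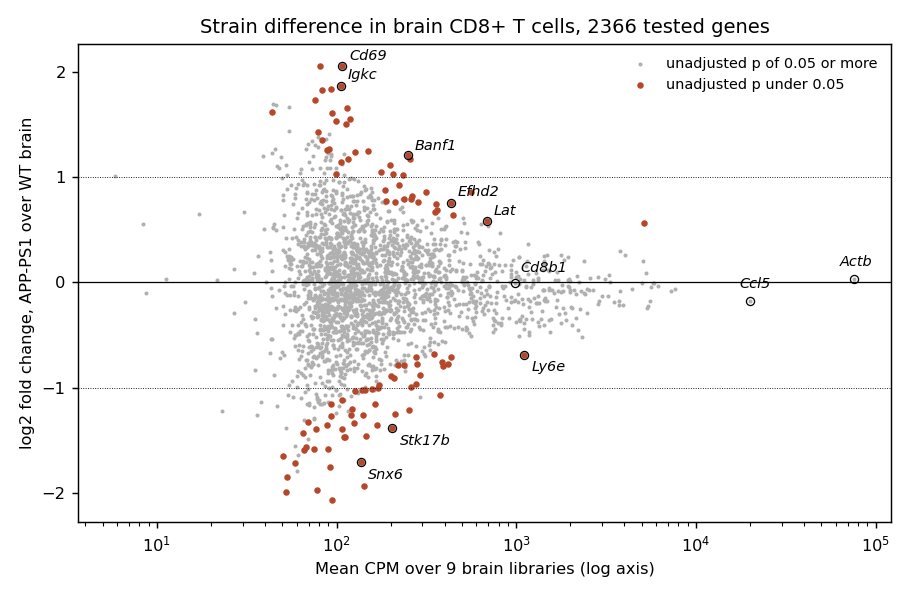
Strain difference of each of the 2366 tested genes. The x axis gives the mean CPM over the 9 brain libraries on a log axis, the y axis the log2 fold change of APP-PS1 over WT brain. Red points are the 99 genes with an unadjusted p under 0.05, none of which passed adjustment, circles mark genes named on the plot, and dotted lines mark 2-fold. The cloud narrows from low to high expression.

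What the libraries could resolve depended on the level of the gene. The 95% interval of the log2 fold change lay wholly inside a 2-fold difference in either direction for 551 of 2366 genes (23.3%), and inside 1.5-fold for 60. Among the 592 tested genes with the highest mean levels, from 248 CPM upward, 427 intervals lay inside 2-fold, and the median half-width was 0.63 on the log2 scale. Among the 592 with the lowest levels, up to 91.9 CPM, 1 did, with a median half-width of 1.40. A 2-fold strain difference was therefore outside the interval for most of the abundant genes, and was not resolved for most of the rare ones.

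The genes of CD8+ T cell identity were present in every library. The T cell receptor and CD8 complex summed to 13137 to 14903 CPM in APP-PS1 brain and 14034 to 16028 CPM in WT brain. Cd8b1, the CD8 beta chain, was at 904, 1054, 1067 and 971 CPM in APP-PS1 brain and 1307, 877, 645, 994 and 1054 CPM in WT brain. The ranges lay within each other, and the log2 fold change was -0.0032 (95% interval -0.50 to 0.49), which leaves out a 1.5-fold difference. Cd8a, the alpha chain, ranged from 433 to 818 CPM and from 563 to 1032 CPM, with a log2 fold change of -0.30 (95% interval -0.84 to 0.25). Cd3e, Cd3g and Trac, parts of the receptor complex, had log2 fold changes of -0.29, -0.24 and -0.24. Of 19 tested genes of this list, 6 were higher and 13 lower in APP-PS1 brain, and the median was -0.092. Lat, the scaffold below the T cell receptor, was at 1338, 726, 711 and 705 CPM in APP-PS1 brain and 395, 600.3, 547, 554 and 595 CPM in WT brain. Every APP-PS1 library lay above every WT library, with the shallow library 1 far above the other 3, and the log2 fold change was 0.59 (95% interval 0.053 to 1.12). Ptprcap, the CD45-associated protein, was the other member of this list with an unadjusted p under 0.05, at a log2 fold change of -0.78 (95% interval -1.46 to -0.093) and with overlapping libraries. Lat and Ptprcap, like the other list members introduced below by an unadjusted p or by libraries that did not overlap, were chosen after their values were seen.

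Residency genes held no called gene between the strains, and the list was not tested as a set. Of 17 tested genes that are high in resident memory cells, 10 were higher and 7 lower in APP-PS1 brain, with a median log2 fold change of 0.13 against -0.029 over all tested genes. Their summed level was 3943 to 4543 CPM in APP-PS1 brain and 2955 to 5182 CPM in WT brain, so the APP-PS1 range lay inside the WT range. Cxcr6, the chemokine receptor of resident T cells, was at 832, 960.1, 693 and 924 CPM in APP-PS1 brain and 612, 518, 1231, 849.8 and 595 CPM in WT brain. The groups overlapped throughout, and the log2 fold change was 0.16 (95% interval -0.41 to 0.74). Cd69, the early activation antigen that also holds T cells in tissue, was at 109, 105, 462 and 94.0 CPM in APP-PS1 brain and 13.6, 35.3, 0, 83.5 and 62.6 CPM in WT brain. All 4 APP-PS1 libraries lay above all 5 WT libraries, but 3 of the 4 were just above the highest WT library and library 3 was over 4 times as high as each of the others. The means were 193 ± 179.9 CPM (SD, n = 4) in APP-PS1 and 38.998 ± 34.3 CPM (SD, n = 5) in WT brain, and the log2 fold change of 2.06 (95% interval 0.80 to 3.32) had an adjusted p of 0.999. With sex as a term in the fit it was 0.65, and in female libraries alone 1.17. The same contrast in blood was 0.46 (95% interval -0.97 to 1.89), and the difference between the strain differences in brain and blood was 1.60 (95% interval -0.30 to 3.51). Xcl1, a chemokine of resident and activated CD8+ T cells, ranged from 181 to 445 CPM and from 352 to 622 CPM, with a log2 fold change of -0.46 (95% interval -1.24 to 0.33). Isg20 and Pmepa1 had log2 fold changes of 0.13 and -0.38.

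Genes that resident cells keep low held no called gene either, and were not tested as a set. Of 16 tested, 7 were higher and 9 lower, with a median of -0.085, and summed levels were 3129 to 4056 CPM in APP-PS1 and 3144 to 3920 CPM in WT brain. Klf2, the factor that drives egress genes, was at 506, 176, 35.6 and 157 CPM in APP-PS1 brain and 122, 200.1, 137, 114 and 136 CPM in WT brain. The APP-PS1 values spanned the whole WT range, and the log2 fold change was 0.32 (95% interval -0.47 to 1.11). Its relative Klf3 had -0.81 (95% interval -1.82 to 0.20). S1pr1, the egress receptor, had 3 counts over the 4 APP-PS1 libraries and 6 over the 5 WT libraries, and Ccr7 had 6 and 11, so neither allowed a comparison at this depth. Naive T cell genes summed to 1209 to 1302 CPM and 979.9 to 1407 CPM, and 7 of 10 tested were higher, with a median of 0.10. Tcf7, the factor of naive and memory cells, had a log2 fold change of 0.17 (95% interval -0.61 to 0.95), and Il7r, the survival cytokine receptor, -0.70 (95% interval -1.82 to 0.43).

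Effector genes were abundant, and none of those tested was called between the strains. Ccl5, a chemokine stored by memory CD8+ T cells, was at 19786, 17363, 13581 and 25277 CPM in APP-PS1 brain and 25247, 21759.5, 17005, 20394 and 19846 CPM in WT brain. The ranges overlapped, with a log2 fold change of -0.18 (95% interval -0.57 to 0.22). Nkg7, a granule membrane protein, was at 4817 to 7198 CPM and 4372 to 6819 CPM, and its log2 fold change was -0.0079 (95% interval -0.41 to 0.39). Gzmb, Gzmk and Gzma, granule proteases, had log2 fold changes of 0.20 (95% interval -0.86 to 1.26), 0.10 (95% interval -0.65 to 0.86) and 0.035 (95% interval -2.26 to 2.33), and perforin (Prf1) 0.42 (95% interval -1.30 to 2.14). The granzyme A and perforin intervals are too wide to leave out a 4-fold difference. Of 14 tested effector genes, 5 were higher and 9 lower, with a median of -0.12. Ctsw, a protease of cytotoxic lymphocytes, was at 109, 281, 231 and 384 CPM in APP-PS1 brain and 313, 400.2, 430.0, 478 and 522 CPM in WT brain. The groups overlapped, and the log2 fold change was -0.68 (95% interval -1.36 to -0.0031).

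Inhibitory receptors and exhaustion genes were sparse. Pdcd1, which encodes PD-1, was at 326, 35.1, 53.3 and 149 CPM in APP-PS1 brain and 191, 135, 58.6, 68.3 and 73.0 CPM in WT brain. Both the highest and the lowest values belonged to APP-PS1 libraries, and the log2 fold change was 0.20 (95% interval -1.13 to 1.52). Tox, the factor of exhausted T cells, had 0.36 (95% interval -0.65 to 1.36), and 3 of 6 tested genes of the list were higher. Their summed level was 726 to 1230 CPM in APP-PS1 and 743 to 1095 CPM in WT brain. Ctla4 had 0 counts in all 9 libraries, which allows up to 3.66 CPM over all brain libraries.

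Killer-cell lectin-like receptors, activating and inhibitory receptors shared with natural killer cells, had the lowest median among lists with at least 5 tested genes, at -0.67, and 4 of 5 tested genes were lower in APP-PS1 brain. Summed over 11 genes with a count, they were at 470, 269, 267 and 595 CPM in APP-PS1 brain and 681, 547, 684, 637 and 689 CPM in WT brain. The male APP-PS1 libraries lay below all WT libraries, and the female one lay within the WT range. Klrk1, which encodes the activating receptor NKG2D, was at 109, 46.8, 107 and 141 CPM in APP-PS1 brain and 136, 241, 274, 167 and 198 CPM in WT brain. The groups overlapped slightly, and the log2 fold change was -1.01 (95% interval -1.92 to -0.098). Klrd1 (CD94) had -0.67 (95% interval -1.50 to 0.16) and Klre1 -1.15 (95% interval -2.55 to 0.24). None passed adjustment, and 1 of the 5 had an unadjusted p under 0.05.

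**Figure D2:**
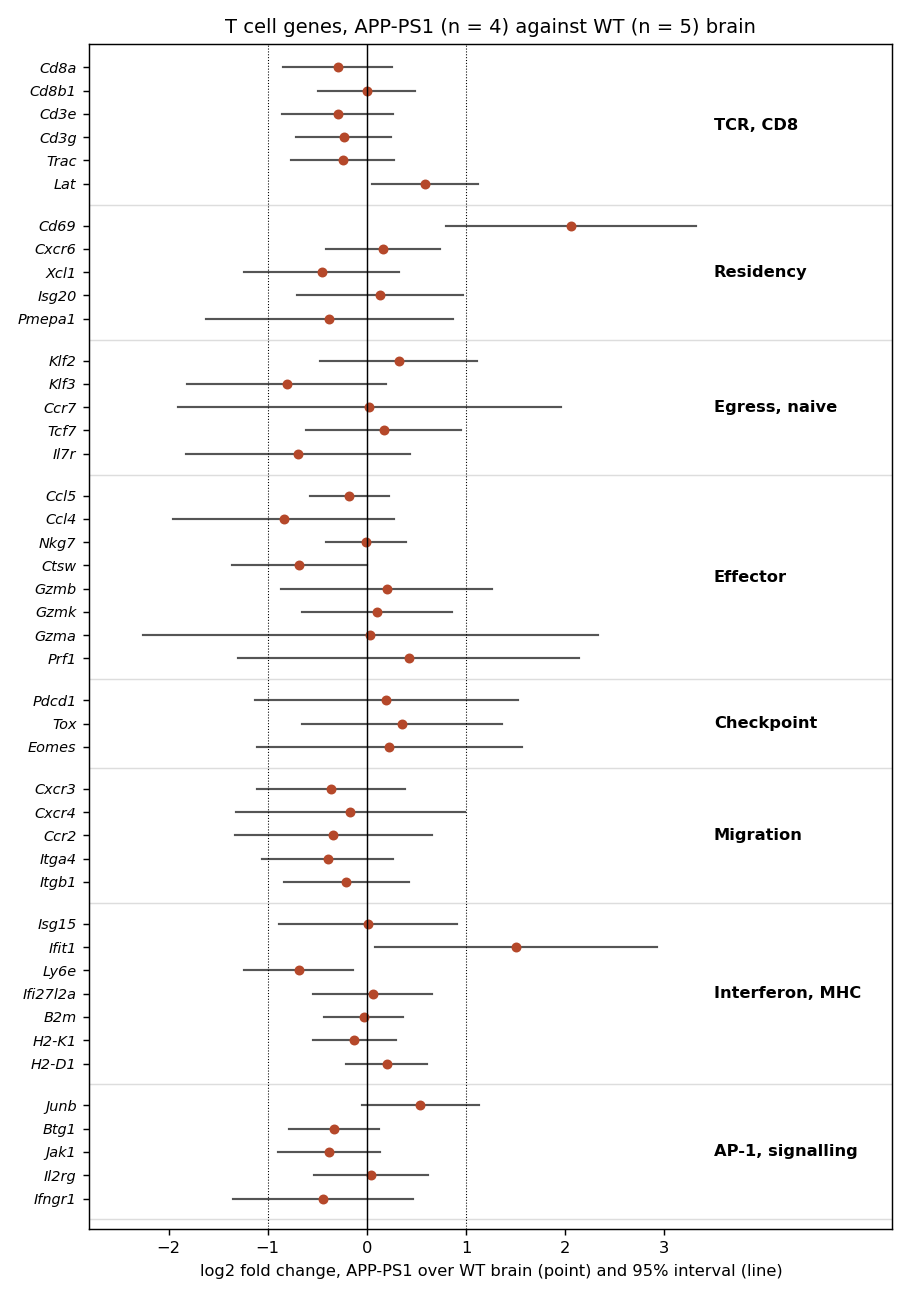
Strain difference of T cell genes grouped by role. Points are log2 fold changes of APP-PS1 over WT brain from the edgeR fit, lines their 95% intervals, and dotted lines mark 2-fold. The interval of Cd8b1, from -0.50 to 0.49, stays inside 2-fold, while that of Cd69, from 0.80 to 3.32, is the farthest to the right.

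Genes of migration and adhesion held no called gene. All 7 tested integrins and adhesion genes had a negative log2 fold change, from -0.87 to -0.21, with a median of -0.42, and none had an unadjusted p under 0.05. The summed level of the list was 1736, 2026, 1795 and 2592 CPM in APP-PS1 brain and 2531, 2690, 1876, 3042 and 2984 CPM in WT brain. The 3 male APP-PS1 libraries were below 4 of the 5 WT libraries, and the female one was within their range. Itga4, the VLA-4 subunit used to enter the brain, had -0.39 (95% interval -1.06 to 0.27), and its partner Itgb1 -0.21 (95% interval -0.84 to 0.42). Of 5 tested chemokine receptors, 2 were higher (Cxcr6 at 0.16 and Ccr7 at 0.023) and 3 lower (Cxcr3 at -0.36, Cxcr4 at -0.17 and Ccr2 at -0.34), and all intervals held 0. The Ccr7 value rested on 6 and 11 counts (95% interval -1.91 to 1.95), too few for a comparison. All 3 tested chemokines were lower in APP-PS1 brain, with a median of -0.46. Ccl4, a chemokine of activated T cells, ranged from 71.1 to 329 CPM in APP-PS1 and from 156 to 639.7 CPM in WT brain, with a log2 fold change of -0.84 (95% interval -1.95 to 0.27). Cytokine receptors and JAK-SOCS genes had a median of -0.38, with 8 of 11 lower. Cish, a feedback inhibitor of cytokine signalling, was at 36.2, 152, 71.1 and 157 CPM in APP-PS1 brain and 231, 206, 235, 167 and 229.6 CPM in WT brain. All APP-PS1 libraries lay below all WT libraries, by a narrow gap, and the log2 fold change was -0.89 (95% interval -1.87 to 0.091). Ifngr1, the interferon gamma receptor chain, had -0.44 (95% interval -1.35 to 0.47), and Il2rg, the common cytokine receptor chain, 0.039 (95% interval -0.54 to 0.61).

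Interferon response genes had fold changes on both sides of 0. Of 23 tested type I interferon genes, 13 were higher and 10 lower in APP-PS1 brain, with a median of 0.043, and their summed level was 5515 to 7502 CPM in APP-PS1 and 5874 to 7709 CPM in WT brain. Isg15 had a log2 fold change of 0.011 (95% interval -0.89 to 0.91) and Ifi27l2a 0.058 (95% interval -0.54 to 0.66). Ifit1, an antiviral RNA sensor, was at 145, 152, 178 and 219 CPM in APP-PS1 brain and 27.2, 23.5, 137, 30.3 and 104 CPM in WT brain. All APP-PS1 libraries lay above all WT libraries, the closest being the third WT library, and the log2 fold change was 1.505 (95% interval 0.079 to 2.93). Its adjusted p was 0.999 with edgeR and 0.514 with limma voom, the smallest that limma voom gave. Ly6e, an interferon-inducible membrane protein, had the opposite sign, at 543, 831, 835 and 1073 CPM in APP-PS1 brain and 1252, 1083, 1173, 1866 and 1283 CPM in WT brain. The groups did not overlap, but the female APP-PS1 library lay just below the lowest WT library, and the log2 fold change was -0.69 (95% interval -1.24 to -0.14). In female libraries alone that of Ly6e was -0.25. Rtp4 was the third interferon gene whose libraries did not overlap, at a log2 fold change of 0.54 (95% interval -0.38 to 1.46). Over all tested genes, 0.845% lay wholly above and 0.719% wholly below, and the list was not tested as a set. MHC class I genes were among the best resolved, with B2m at 6330.0, 6029.7, 5599.5 and 6875 CPM in APP-PS1 brain and 6070.1, 5950.4, 5590.2, 6624 and 6605 CPM in WT brain. The log2 fold change of B2m was -0.033 (95% interval -0.43 to 0.37), that of H2-K1 -0.13 (95% interval -0.54 to 0.29) and that of H2-D1 0.20 (95% interval -0.21 to 0.61). For all 3, the interval leaves out a difference of 2-fold. Of 24 tested interferon gamma and MHC class I genes, 14 were higher and 10 lower, with a median of 0.084.

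Activation, transcription factor and housekeeping lists also held no called gene. Of 13 immediate early and AP-1 genes, 7 were higher, with a median of 0.11. Junb, an AP-1 subunit, had 0.54 (95% interval -0.047 to 1.13). NF-kB genes had 3 of 4 lower, effector and memory transcription factors 11 of 17 lower with a median of -0.18, and TGF-beta genes 2 of 3 higher. Ikzf2 (Helios), the factor farthest from 0, was at 0, 11.7, 35.6 and 86.1 CPM in APP-PS1 brain and 354, 135, 19.5, 53.1 and 136 CPM in WT brain. The groups overlapped widely, with a log2 fold change of -1.76 (95% interval -3.33 to -0.19). Survival genes (5 of 12 higher) and heat shock genes (5 of 13 higher) had medians of -0.046 each. Among 9 cell cycle genes, the cyclin Ccnd3 was at 832, 527, 498 and 439 CPM in APP-PS1 brain and 136, 424, 391, 395 and 355 CPM in WT brain. The groups did not overlap, with the female APP-PS1 library just above the highest WT library, and the log2 fold change was 0.64 (95% interval 0.019 to 1.26).

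Metabolic and translation genes held no called gene, and those of ribosomal proteins were measured precisely. Of 79 tested ribosomal protein genes, 21 were higher and 58 lower in APP-PS1 brain, with a median of -0.095, and 73 had intervals inside 2-fold. Mitochondrially encoded genes had 11 of 13 lower with a median of -0.21, and nuclear oxidative phosphorylation genes 32 of 52 lower with a median of -0.12. The share of mitochondrial counts was 1.84%, 1.70%, 2.49% and 2.83% in APP-PS1 brain and 2.97%, 2.51%, 1.83%, 2.60% and 2.86% in WT brain. The lowest share was in a male APP-PS1 library and the next in WT library 3, and the groups overlapped. Gapdh, a glycolytic enzyme, was at 72.3, 363, 160.0 and 180.1 CPM in APP-PS1 brain and 395, 347, 332, 372 and 313 CPM in WT brain. One APP-PS1 library lay within the WT range, and the log2 fold change was -0.77 (95% interval -1.53 to -0.019). Aldoa and Eno1 of the same pathway had log2 fold changes of 0.18 and 0.32. Proteasome subunits with an unadjusted p under 0.05 differed in sign: Psma5 and Psmd4 had log2 fold changes of 1.43 and 1.02, Psma4 and Psmb1 -1.57 and -0.76, and the median of 25 was 0.094. Actb, the beta-actin gene and the most abundant transcript, ranged from 36358 to 125330 CPM over the 9 libraries, with both ends in WT brain, so the share of counts left for other genes varied between libraries.

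**Figure D3:**
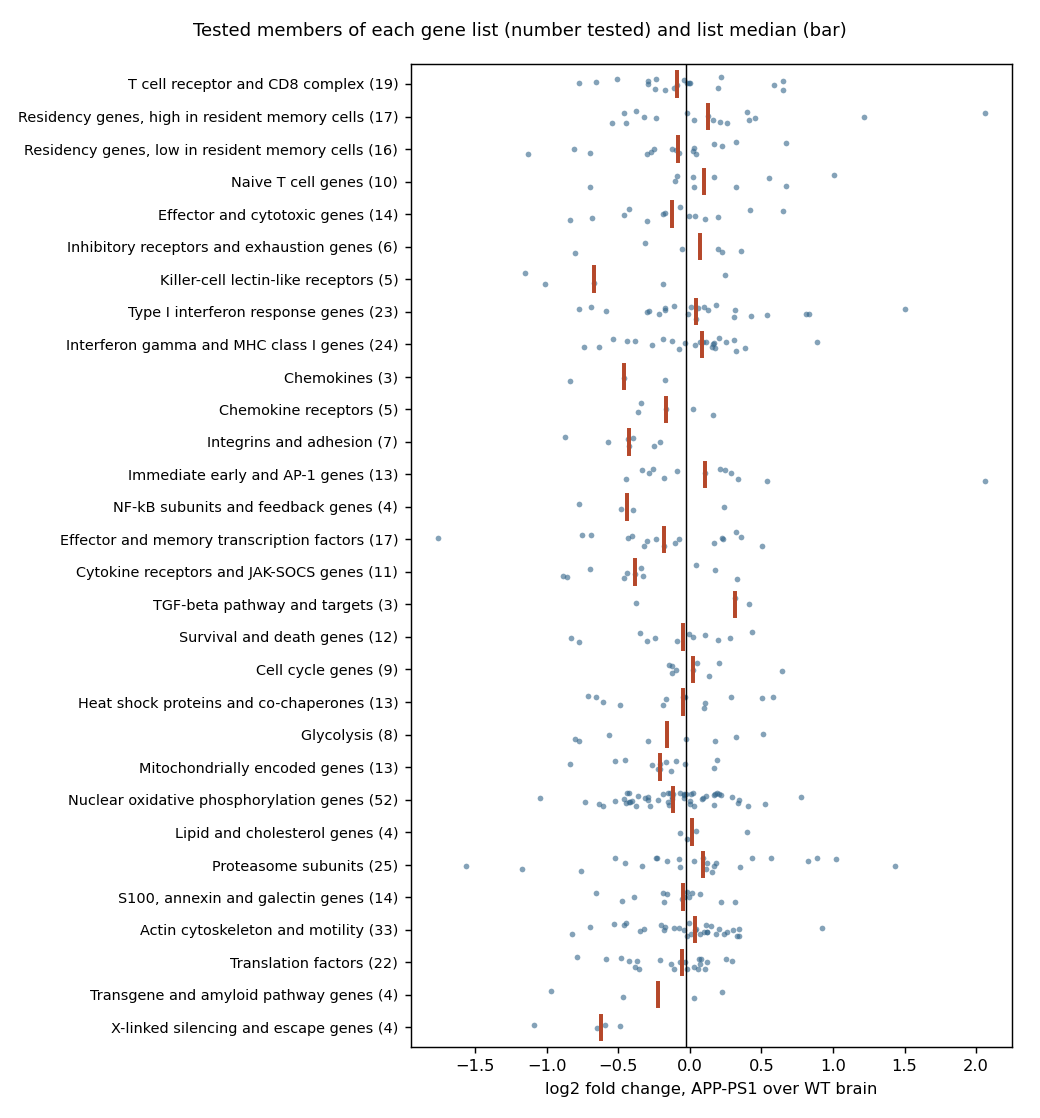
Log2 fold change of APP-PS1 over WT brain for the tested members of each functional gene list with at least 3 tested genes, ribosomal protein genes and marker lists of other cells left out (points) with the list median (bar). The number of tested members is in brackets, points are spread vertically for legibility, and the vertical line is the median of all tested genes, -0.029. Medians lie between -0.67 and 0.32, and single members scatter on both sides of the line in most lists.

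Of the 37 tested genes whose libraries did not overlap, the 10 of smallest unadjusted p in each direction that the naming rule gave are described by their values, since none passed adjustment. Banf1, a chromatin-binding protein of the nuclear envelope (chr19:5364638-5367168, minus strand, GRCm38), was at 651, 409.8, 213 and 243 CPM in APP-PS1 brain and 136, 147, 78.2, 182 and 177 CPM in WT brain. The shallow male library 1 was highest, and the female APP-PS1 library was still above all WT libraries. The means were 379 ± 201 CPM (SD, n = 4) in APP-PS1 and 144 ± 41.7 CPM (SD, n = 5) in WT brain, with a log2 fold change of 1.21 (95% interval 0.48 to 1.94), the smallest unadjusted p of the comparison and an adjusted p of 0.999. In blood the same contrast for Banf1 was -0.32 (95% interval -1.16 to 0.52). Cd69 (chr6:129267325-129275436, minus strand), described above, followed. Cdc123, an assembly factor of the translation initiation factor eIF2, was at 289, 176, 178 and 117 CPM in APP-PS1 brain and 95.3, 41.2, 19.5, 68.3 and 41.7 CPM in WT brain, which gave 1.66 (95% interval 0.60 to 2.72). Lypla2, a thioesterase that removes lipid anchors from proteins, was at 470.2, 421, 338 and 282 CPM and 204, 100.1, 156, 235 and 104 CPM, which gave 1.18 (95% interval 0.40 to 1.95). For both, the female APP-PS1 library was the lowest of its group and the closest to WT.

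The others on the higher side were genes of mixed function. Dnajc8, a splicing-associated J-domain protein, was at 253, 398, 231 and 258 CPM in APP-PS1 and 149.7, 100.1, 97.7, 182 and 115 CPM in WT brain. Glrx2, a mitochondrial glutaredoxin, was at 181, 105, 213 and 133 CPM and 27.2, 17.7, 19.5, 53.1 and 83.5 CPM. Phpt1, a histidine phosphatase, was at 145, 70.2, 124 and 172 CPM and 13.6, 41.2, 19.5, 45.5 and 52.2 CPM. These had log2 fold changes of 1.12, 1.84 and 1.73. Abi3, an adaptor of the actin-regulating WAVE complex, was at 253, 140.5, 231 and 289.7 CPM in APP-PS1 and 54.4, 112, 19.5, 114 and 136 CPM in WT brain. Efhd2, a calcium-binding actin regulator, was at 687, 480.0, 693 and 439 CPM and 204, 347, 293, 372 and 376 CPM. Cdk6, the kinase partner of D-type cyclins, was at 289, 328, 338 and 266 CPM and 95.3, 182, 254, 167 and 93.9 CPM. Their log2 fold changes were 1.25, 0.75 and 0.92, and in Efhd2 and Cdk6 the female APP-PS1 library was the lowest of its group.

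On the lower side, Stk17b, a kinase that restrains T cell receptor signalling (chr1:53755506-53785224, minus strand), was at 36.2, 70.2, 142 and 157 CPM in APP-PS1 brain and 327, 300.2, 254, 273 and 282 CPM in WT brain. The WT libraries were close together and even the highest APP-PS1 library, the female one, was well below the lowest of them. The means were 101 ± 57.6 CPM (SD, n = 4) in APP-PS1 and 287 ± 27.6 CPM (SD, n = 5) in WT brain, with a log2 fold change of -1.39 (95% interval -2.23 to -0.54). In blood the contrast for Stk17b was -0.64 (95% interval -1.64 to 0.36), and the difference between brain and blood was -0.75 (95% interval -2.07 to 0.57), so a strain difference particular to the brain was not shown. Rnaseh2c, a subunit of the RNA-DNA hybrid nuclease RNase H2, was at 72.3, 23.4, 88.9 and 109.6 CPM in APP-PS1 brain and 245, 147, 137, 243 and 250.4 CPM in WT brain. Snx6, a sorting nexin of the retromer pathway, was at 0, 58.5, 53.3 and 94.0 CPM and 149.7, 177, 274, 319 and 104 CPM. In Snx6 the gap between the groups was about 1 count of the libraries nearest to it. The log2 fold changes were -1.46 (95% interval -2.46 to -0.46) and -1.71 (95% interval -2.90 to -0.52).

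Ly6e, described with the interferon genes, was also among them (chr15:74955051-74959905, plus strand). Pstpip1, a cytoskeletal adaptor of CD2, was at 72.3, 70.2, 71.1 and 62.6 CPM in APP-PS1 and 149.7, 206, 176, 91.0 and 229.6 CPM in WT brain, and its SD of 4.38 CPM in APP-PS1 brain was the smallest among the 20 genes. Leprotl1, an endosomal membrane protein, was at 72.3, 269, 196 and 227 CPM and 340.3, 400.2, 371, 425 and 334 CPM. Pik3r5, the p101 adaptor of PI3-kinase gamma, was at 0, 35.1, 0 and 31.3 CPM and 95.3, 58.9, 78.2, 53.1 and 125 CPM, and 2 of 4 APP-PS1 libraries had no count of it. Their log2 fold changes were -1.34, -0.88 and -1.85. Fcf1, a ribosomal RNA processing factor, and Sept6, an X-linked septin, had -1.26 and -1.03. Flt3l_2, an entry of the gene of the growth factor FLT3 ligand, had -1.02. The table also lists Flt3l_1, so reads shared by both entries make that value uncertain. Of these 20 genes, the female APP-PS1 library, 1 of 4, was the one nearest to the WT libraries in 11. It was also the deepest of its group, at 127707 counts, so sex and depth cannot be told apart here. With sex as a term in the fit, all 20 kept their sign and 15 moved closer to 0.

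**Figure D4:**
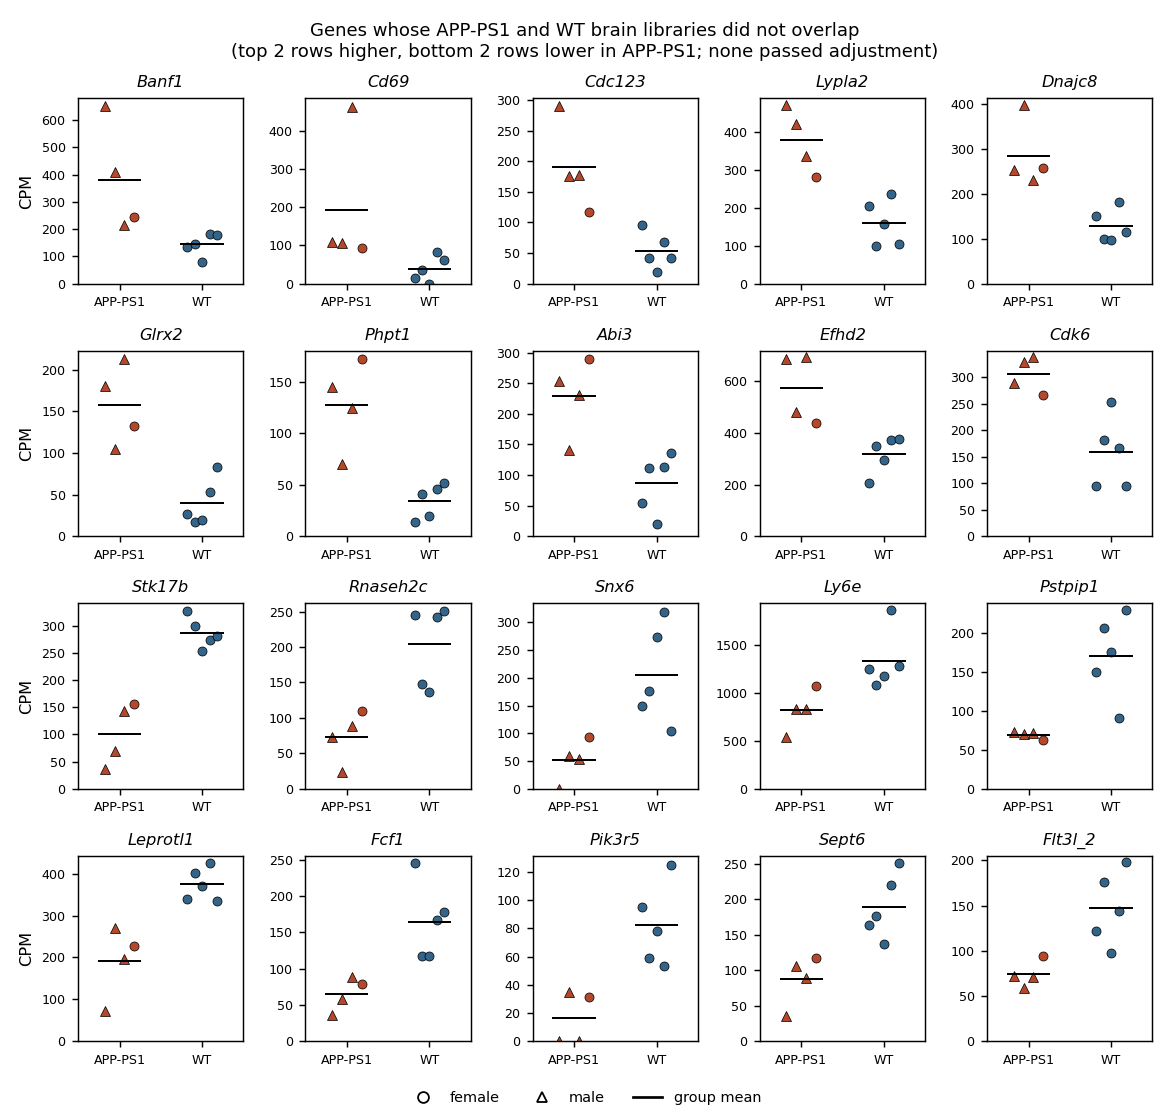
CPM in each brain library (points, circles female, triangles male) with group means (bars) for the 10 higher and 10 lower genes described in the text. Every y axis starts at 0. Every WT library is female, and 1 of the 4 APP-PS1 libraries is.

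Genes with too few counts for the model were tested on CPM over 4 and 5 libraries by an exact permutation test, two-sided, for which the smallest possible p is 0.0159. Itga1 (CD49a) was at 72.3, 35.1, 88.9 and 7.83 CPM in APP-PS1 brain and 27.2, 112, 97.7, 220.0 and 188 CPM in WT brain. The groups overlapped, and 11 counts stood against 73. The means were 51.04 ± 36.5 CPM (SD, n = 4) in APP-PS1 and 129 ± 76.4 CPM (SD, n = 5) in WT brain, with an exact p of 0.103 and an adjusted p of 0.722 over the 14 genes so tested. WT brain library 1 was the only WT library inside the APP-PS1 range, so leaving it out separates the groups. The exact p of Itga1 by permutation was then 0.0286 before adjustment, the smallest possible with 4 libraries on each side. That value was fixed in advance by the choice of the library left out, so it adds no evidence of a strain difference. Itgae (CD103) had 11 counts in APP-PS1 and 20 in WT brain, with means of 32.3 ± 29.3 CPM (SD, n = 4) in APP-PS1 and 33.3 ± 38.3 CPM (SD, n = 5) in WT brain and an exact p of 0.976. The transcription factors of residency were as sparse, with 5 and 7 counts of Zfp683 (Hobit) and 10 and 24 of Prdm1. Tigit had 15 and 31 counts, Lag3 8 and 14, Havcr2 1 and 1, Ifng 11 and 10, Tnf 1 and 2, and Ccl3 11 and 25. With 4 and 5 libraries, 1 separated gene cannot pass the adjustment over 14 genes, so that none did says nothing of whether these genes differed.

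The transgene itself could not be used to check the strain labels. App had 0 counts in the 4 APP-PS1 libraries, which allows up to 10.1 CPM over that group, and 4 counts in the 5 WT libraries. Prnp, whose promoter drives the transgenes, had 2 and 11 counts. Of 4 tested genes of amyloid processing, 2 were higher and 2 lower. Adam10, the alpha-secretase, was at 181, 105, 88.9 and 109.6 CPM in APP-PS1 and 231, 247, 39.1, 189.7 and 355 CPM in WT brain, which overlapped and gave -0.97 (95% interval -1.86 to -0.081). Psenen and Aph1a, subunits of gamma-secretase, had 0.032 (95% interval -0.59 to 0.66) and 0.22 (95% interval -1.10 to 1.54). Of the sex labels, Ddx3y, on the Y chromosome, was at 72.3, 70.2 and 53.3 CPM in the 3 male libraries and at 0 in the 6 female libraries. Of the other 3 listed Y-linked genes, Kdm5d and Uty were at 0 in every brain library. The list held 25 counts in APP-PS1 brain, 11 of them of Ddx3y and the rest of Eif2s3y. It summed to 145, 199 and 71.1 CPM in the male libraries and to 0 in the female APP-PS1 library. Eif2s3y also accounted for 5 counts in female WT brain libraries, where the list summed to 27.2, 11.8, 0, 0 and 10.4 CPM. Xist, the X-inactivation RNA of female cells, was at 36.2, 0 and 17.8 CPM in the male APP-PS1 libraries, 572 CPM in the female one and 78.2 to 544 CPM in WT brain. All 4 tested X-linked silencing and escape genes were lower in APP-PS1 brain, with a median of -0.62.

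Whether the strain difference in brain departed from that in blood was tested as an interaction in the same fit, and 1 of 2366 genes was called (0.0423%). It was Igkc, the immunoglobulin kappa constant region (chr6:70726435-70726966, plus strand), which belongs to B cells. Its CPM were 109, 492, 17.8 and 86.1 CPM in APP-PS1 brain, 27.2, 64.7, 78.2, 45.5 and 31.3 CPM in WT brain, 0, 21.6 and 24.3 CPM in APP-PS1 blood and 284, 261, 167, 239.6 and 78.6 CPM in WT blood. In brain the groups overlapped and APP-PS1 library 2 alone held 42 of the 57 counts of that group, while in blood every WT library lay above every APP-PS1 library. The log2 strain difference was 1.86 (95% interval 0.71 to 3.02) in brain and -3.69 (95% interval -5.56 to -1.82) in blood, and their difference was 5.56 (95% interval 3.38 to 7.73), with an adjusted p of 0.00995 by edgeR's quasi-likelihood test. Without APP-PS1 brain library 2 the difference was 4.12 with an adjusted p of 0.684, the brain value was 0.46, and 0 genes were called. Leaving out APP-PS1 blood library 1 also ended the call, at an adjusted p of 0.0842, as did DESeq2 (0.261), limma voom (0.993) and female libraries alone (0.638). The next genes, Phpt1, Clta, Trnt1 and Ezr, had an adjusted p of 0.721. At an unadjusted p under 0.05 the interaction held 115 genes.

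**Figure D5:**
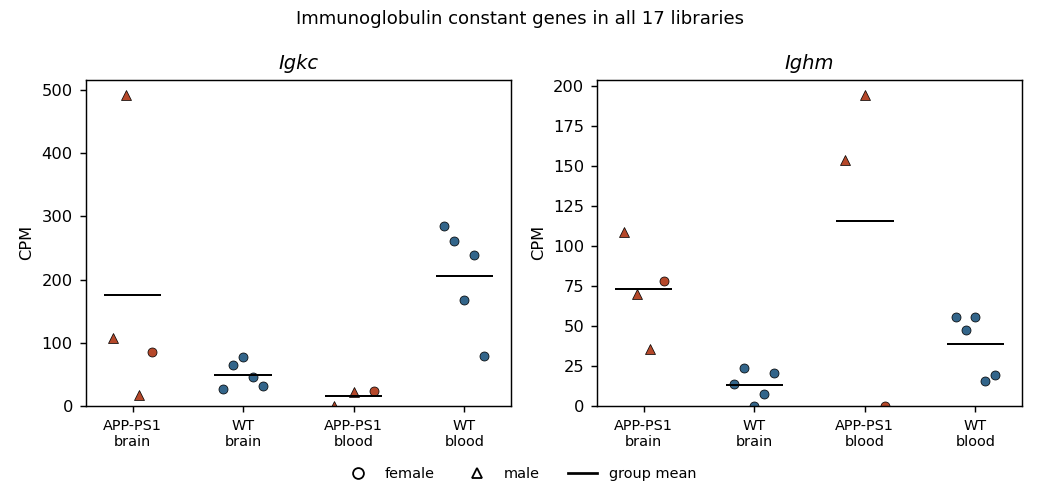
CPM of Igkc (left) and Ighm (right) in each of the 17 libraries (points, circles female, triangles male) with group means (bars). In APP-PS1 brain 1 male library is at 492 CPM of Igkc and the other 3 are between 17.8 and 109 CPM. For Ighm, the APP-PS1 brain libraries are all above the WT brain libraries. In blood the mean of Ighm is 116 CPM in APP-PS1 and 38.9 CPM in WT libraries, while the order of Igkc there is the reverse.

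Other B cell genes were sparse in brain. Ighm, the immunoglobulin mu constant region (chr12:113418558-113422730, minus strand), was below the filter, at 109, 70.2, 35.6 and 78.3 CPM in APP-PS1 brain and 13.6, 23.5, 0, 7.59 and 20.9 CPM in WT brain. These groups did not overlap, on 21 and 8 counts, and Ighm was singled out after its values were seen. The B cell list summed to 107 to 621 CPM in APP-PS1 brain and 95.3 to 157 CPM in WT brain, with 9 of 14 genes detected. Igkc and Ighm are in that sum, so it is not separate from them. They held 57 and 21 of its 92 counts in APP-PS1 brain and 26 and 8 of its 60 in WT brain. The blood sums of the list were 219 to 345 CPM in APP-PS1 and 137 to 522 CPM in WT libraries. Ms4a1, Ighd, Iglc2 and Ly6d were at 0 in all 9 brain libraries. The part of B cells or of free RNA in the Igkc result was not tested.

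Markers of other cell types were at or near 0 for astrocytes, neurons and neutrophils, but not for every list. The microglia list summed to 0 to 178 CPM in APP-PS1 and 0 to 109 CPM in WT brain, on 8 of 16 genes, and P2ry12, Tmem119, Sall1, Trem2 and C1qa were at 0. In blood that list summed to 25.6 to 219 CPM in APP-PS1 and 116 to 253 CPM in WT libraries. Genes of disease-associated microglia, which plaque-associated microglia raise, summed to 693 to 904 CPM and 480.0 to 759 CPM. The ranges overlapped, and Trem2, Spp1 and Gpnmb were at 0. Blood libraries summed to 518 to 1178 CPM in APP-PS1 and 617 to 992 CPM in WT for this list, so it was not particular to brain. Ctsd and Cst7 held 172 and 45 of its 238 counts in APP-PS1 brain and 218 and 87 of its 341 in WT brain. Ctsd, a lysosomal protease of that list which other cells also express, ranged from 548 to 651 CPM and from 254 to 612 CPM, with a log2 fold change of 0.48 (95% interval -0.10 to 1.07). Astrocyte markers had 0 and 1 counts and neuron markers 4 and 8. Neutrophil markers had 2 and 7 counts, with S100a8 and S100a9 at 0. Oligodendrocyte markers summed to 213 to 446 CPM in APP-PS1 and 136 to 352 CPM in WT brain, on 108 and 120 counts. In blood the same list summed to 243 to 435 CPM in APP-PS1 and 234 to 399 CPM in WT libraries, so it was not particular to brain. Cnp held 75 of the 108 counts in APP-PS1 brain and 84 of the 120 in WT brain. Mbp of that list, a myelin protein, was at 36.2, 35.1, 17.8 and 172 CPM and 68.1, 94.2, 39.1, 75.9 and 10.4 CPM, and Mog, Mag and Mobp were at 0. The mean of Mbp in blood was 64.3 CPM in APP-PS1 and 75.4 CPM in WT libraries. Endothelial markers summed to 145 to 320.0 CPM and 218 to 379 CPM, with Cldn5, Cdh5 and Flt1 at 0. Both lists overlapped between the strains. The list of CD4+, regulatory and other T cells summed to 351 to 579 CPM in APP-PS1 and 516 to 830.2 CPM in WT brain, on 6 of 10 genes, of which the tested ones were Ikzf2, Tcrg-C2 and Tcrg-C4. Cd4, Foxp3 and Trdc of that list were at 0 in all 9 libraries. The monocyte and macrophage list, which includes the T cell genes Ccr2 and Ly6c2, summed to 687 to 889 CPM and 547 to 1377 CPM, with Cd14, Adgre1 and Mrc1 at 0. Natural killer cell markers summed to 142 to 446 CPM and 144 to 459 CPM, with Ncr1 at 0, and dendritic cell markers to 129 to 326 CPM and 117 to 282 CPM, with Clec9a and Flt3 at 0. The part of these cells in the strain comparison was not tested. Haemoglobin and platelet genes summed to 36.2 to 368 CPM in APP-PS1 and 156 to 888 CPM in WT brain, with all 4 tested genes of that list lower in APP-PS1 brain.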

How the data were processed

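The members are the 9 brain libraries the labels name. They, the lists of genes and the naming rule were chosen with earlier results of these data known. The authors deposited raw counts of each gene, as whole numbers without normalization. The build is GRCm38 and the tools are Bowtie2 2.2.2, FastQC, DESeq2 and HTSeq 0.11.2, all per the submitters' processing notes, which give no roles, so strand setting and shared reads are unknown. Of 48709 identifiers, 48349 matched GENCODE M21.

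All 17 libraries were fitted in edgeR 4.0.16 (R 4.3.3) with TMM scaling, filterByExpr (about 117 CPM in at least 3 libraries), robust quasi-likelihood dispersions (common coefficient of variation 0.370) and 1 mean per group. P-values were Benjamini-Hochberg adjusted over 2366 genes and called under 0.05. Intervals are 95% intervals of the fit. CPM use total counts, and SDs are between libraries. Exact permutation tests used SciPy 1.17.1 and figures matplotlib 3.10.9. Floors of 3 counts cover counting error only. Over 16 same-group brain pairs, chi-square per degree of freedom was 2.59 to 5.24, so none counted as a repeat. The scripts were tested on simulated data.

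Genes were named by this rule: up to 10 per direction of smallest unadjusted p whose libraries do not overlap, up to 3 members of each list by mean CPM, a fixed T cell set, the leading interaction genes and the markers of other cells. Other list members were added after their values were seen. Alternatives were RLE scaling, DESeq2 1.42.0, limma voom (limma 3.58.1), 2 other filters, a non-robust fit, brain libraries only, sex as a term, only female libraries, thinning to 27646 counts, a fit without mitochondrial, ribosomal and haemoglobin genes, and leaving out each library. The fit without both libraries that stood apart, and leaving out blood libraries, were chosen after seeing the data. A few genes the rule gives are not reported here.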

Additional observations from a re-analysis of the deposited data

Results flagged for a closer look

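In 13 of 224 groups of 4 or 5 brain libraries, the highest or lowest library lay far from the others by Dixon's criterion, and chance alone gives about 1 in 20. In APP-PS1 brain, library 3 was high for Cd69 (462 CPM, next 109), Il7r (462 CPM, next 180.1) and Ly6c2 (764 CPM, next 503). Library 1, the shallowest, was high for Lat (1338 CPM, next 726) and for Klrd1 (217 CPM, next 107). Library 2 was high for Dnajc8 (398 CPM, next 258). Library 4, the female one, was high for Xist (572 CPM, next 36.2) and low for Fli1 (423 CPM, next 579).

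In WT brain, library 1 was low for Ccnd3 (136 CPM, next 355) and Lat (395 CPM, next 547). Library 2 was high for Klf2 (200.1 CPM, next 137), and library 4 for Ly6e (1866 CPM, next 1283) and Xcl1 (622 CPM, next 395). Single libraries thus entered the values of Cd69, Lat, Dnajc8, Ccnd3 and Ly6e, whose groups did not overlap.

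The strain difference of Igkc differed between brain and blood by 5.56 on the log2 scale (SE 1.09), with an adjusted p of 0.00995 by edgeR. It rested on 57 counts in APP-PS1 brain, 26 in WT brain, 2 in APP-PS1 blood and 132 in WT blood. The call was lost without APP-PS1 brain library 2 (adjusted p of 0.684) and without APP-PS1 blood library 1 (0.0842), and the part of other cells in it was not tested.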

How the results depend on the processing

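Between APP-PS1 and WT brain, 0 genes were called under each of the 21 alternatives run, and the smallest adjusted p among them was 0.160, for Xist without APP-PS1 brain library 4, the female one. Unadjusted p-values under 0.05 ranged from 28 genes of 679 tested after thinning to 715 of 13539 with no filter, against 99 of 2366, and were 337 of 7395 with the lower filter. Most named genes kept their sign: 135 of 141 with RLE scaling, 113 of 141 with sex as a term and 94 of 141 in female libraries alone, where APP-PS1 brain is 1 library assumed to vary like the other groups. The interaction count of 1 gene, Igkc, fell to 0 with DESeq2, limma voom, thinning (where Igkc was not tested) and female libraries alone. Leaving out each library in turn gave 0 to 1 genes, with 0 without APP-PS1 brain library 2 or APP-PS1 blood library 1. No paired analysis was possible because the labels number no replicates. Depth limits the genes below 91.9 CPM most. The cause of these shifts was not tested.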
